A study of Mus musculus with 34 samples.

Results

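Degs1 is the last enzyme of de novo ceramide synthesis, a desaturase acting on dihydroceramide. Of 9 sequenced libraries of 1 Degs1 knockout clone of mouse colon tumour organoids (clone1), those with replicate numbers 7 to 9 (3 libraries) are described here against those numbered 1 to 6 (6 libraries), out of 34 libraries in the series. Both sets were chosen by the RNA profiles compared below, since the boundary was placed where libraries stopped resembling one another. For that reason gene differences between the sets are given as a description, and counts past a p threshold only rank genes. All 9 clone1 libraries carry the same labels: colon, epithelial cells, genotype AKP, and Degs1-KO made by ribonucleoprotein CRISPR. The libraries used beside them were 3 of a Scrambled control and 9 of a further knockout clone (clone2), both also AKP. Each clone is 1 line, and the labels name neither a culture, a passage nor a sequencing batch. The replicates may therefore be technical, and p-values in comparisons with Scrambled measure only the spread between these libraries.

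Organoids are epithelial cultures grown in a gel, in which dividing progenitor-like cells and partly differentiated cells share 1 culture. Entry into S phase needs the replicative helicase, its loading factors and the enzymes that make deoxynucleotides, which are transcribed together under E2F factors. The integrated stress response slows general protein synthesis while the factor ATF4 switches on amino acid transporters, serine synthesis enzymes and tRNA synthetases. In the colon, absorptive cells are recognised by carbonic anhydrases, Krt20 and brush-border proteins, and they arise as cells leave the dividing crypt under falling Wnt and rising BMP signals. RNA was taken from whole cultures, so fewer cells of a type and less RNA per cell cannot be told apart.

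Total counts in clone1 ran from 883253, in replicate 2, to 5346951. Replicates 7 to 9 held 4510008 to 5346951 counts and replicates 1 to 6 a median of 3725140. The difference in mean total, 1353650 counts, was not past the spread between libraries (exact two-sided permutation test over 84 assignments, p = 0.131, where the smallest possible p was 0.0119). Degs1 (ENSMUSG00000038633, chromosome 1, 182275772 to 182282804, mm10) stood at 7.96, 4.96 and 9.97 CPM (counts rescaled to a common library total) in Scrambled, at 0.799 to 3.09 (median 2.08) in replicates 1 to 6 and at 1.78, 3.28 and 4.51 in replicates 7 to 9. Both clone1 sets lay below every Scrambled library and overlapped one another. All 6 epithelial markers were present, with summed levels of 2915 to 3407 CPM in replicates 1 to 6 and 2623 to 2794 CPM in replicates 7 to 9. The colon markers Cdx2, Cdx1 and Hnf4a summed to 63.7 to 100.3 CPM and 64.3 to 79.4 CPM. Of 12 fibroblast and muscle markers 9 had no count in any clone1 library, Col1a1, Col1a2, Col3a1, Dcn and Pdgfra among them, and the sum stayed at or below 0.278 and 0.396 CPM. Of 12 immune markers 6 were at 0, Cd3e, Lyz2 and Adgre1 among them, with sums of 22.4 to 28.6 and 23.8 to 25.3 CPM that were nearly all Cd68. Of 12 endothelial and neural markers 6 were at 0, Cdh5 and Sox10 among them, with sums of 0.773 to 3.75 and 2.05 to 2.77 CPM.

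The 3 later libraries resembled one another and departed together from the other 6. Over 6928 genes, after the mean of each gene over the 9 libraries had been removed, Pearson's r across genes was 0.437 to 0.458 for the 3 pairs within replicates 7 to 9. Pairs within replicates 1 to 6 had r from -0.247 to 0.165, with a median of 0.0195 over 15 pairs. Pairs across the boundary had r from -0.358 to -0.188, with a median of -0.274 over 18 pairs. Removing a mean over only 9 libraries pushes such values below 0, genes are not independent replicates, and this resemblance is what defined the sets. Replicate 2, the shallowest library, stood alone on the first principal component, at 47.8, where the others lay between -13 and -0.483. The second component held replicates 7 to 9 at 14.1 to 19.1, replicate 2 at 8.85 and the remaining 5 at -13.9 to -9.42.

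**Figure D1:**
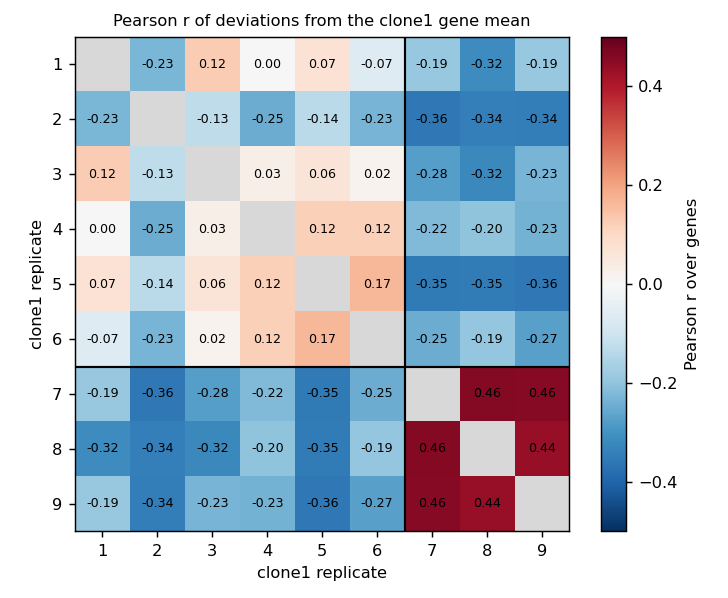
Pearson's r between clone1 libraries over 6928 genes, after each gene's mean over the 9 libraries was removed; both axes are replicate numbers, colour and printed number are r, and black lines mark the boundary between replicates 6 and 7. The 3 pairs within replicates 7 to 9 lie at 0.437 to 0.458 and all 18 pairs across the boundary lie below 0.

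Of 11514 genes that passed the filter on low counts, 1006 (8.74%) passed an adjusted p of 0.05 in edgeR's quasi-likelihood fit, a threshold used here only to rank genes and called "called" below. Replicates 7 to 9 were higher for 458 of them (3.98% of genes tested) and lower for 548 (4.76%). A log2 difference of at least 1 was reached by 46 of the higher and 134 of the lower genes. In 752 genes (6.53%) every later library lay above all 6 earlier ones, and in 747 (6.49%) below them. The count of called genes was 468 without replicate 8, 593 without replicate 7 and 609 without replicate 9. The shallow replicate 2 left out, it was 1115, and it was 205 when all 34 libraries shared 1 estimate of the spread. By chromosome, the median log2 difference ran from -0.09, on chromosome 13, to 0.03, on chromosome 19, against -0.02 over all genes. Reads of the 18S ribosomal RNA entry Rn18s-rs5, a remnant in poly(A)-selected libraries, made up 0.426% to 0.551% of counts in replicates 7 to 9 and 0.617% to 2.42% in replicates 1 to 6. Mitochondrially encoded RNAs made up 4.14% to 4.30% and 4.36% to 5.11%. Neither measure overlapped between the sets, and the part of either in the gene differences was not tested.

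Among called genes whose log2 CPM averaged 3 or more and whose sets did not overlap, the 12 with the largest positive differences included Mcm5 and Rrm2 of the S phase list and Trib3 and Chac1 of the integrated stress response list. Trib3, a pseudokinase induced by ATF4 and DDIT3 (ENSMUSG00000032715, chromosome 2, 152337422 to 152344032), had 14.4, 14.9 and 18.4 CPM in replicates 7, 8 and 9 and 3.46 to 7.90 (median 5.73) CPM in replicates 1 to 6. Apip, an enzyme of the methionine salvage pathway, had 33.6, 33.2 and 35.9 CPM against 8.95 to 15.8 (median 12.2) CPM. In both genes each later library lay above each earlier one, with log2 differences of 1.48 ± 0.26 (SE) and 1.44 ± 0.21. Recql4, a helicase needed to start DNA replication, had 18.8, 23.1 and 22.9 CPM against 3.35 to 12.2 (median 9.75) CPM. The exonuclease Exo1 had 13.1, 14.7 and 15.7 CPM against 3.35 to 8.33 (median 6.49) CPM. Mtbp, a partner of the origin-firing factor treslin, had 19.99, 18.22 and 18.5 CPM against 7.52 to 14.5 (median 8.78) CPM. None of these 3 genes overlapped between the sets, and their log2 differences were 1.19, 1.19 and 1.06. The repair factors Fignl1 and Abraxas1 differed by 1.03 and 1.04, the lipid droplet protein seipin (Bscl2) by 1.01 and the cilium transport GTPase Ift27 by 1.004. Genes below that level, or with overlap, could differ by more.

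By the same rule, the 12 largest negative differences came from several lists. Smpx, a small cytoskeletal protein of muscle (ENSMUSG00000041476, chromosome X, 157698910 to 157752591), had 5.94, 5.94 and 8.35 CPM in replicates 7 to 9 and 23.1 to 41.4 (median 34.3) CPM in replicates 1 to 6, a log2 difference of -2.28 ± 0.19. The iron exporter ferroportin (Slc40a1) had 9.10, 5.12 and 5.51 CPM against 14.5 to 33.0 (median 22.1) CPM. Matrix Gla protein (Mgp), an inhibitor of calcification, had 23.0, 16.6 and 22.6 CPM against 53.9 to 94.3 (median 72.1) CPM. Every later library lay below every earlier one in these 3 genes. Dapl1, an epithelial differentiation gene, had 123, 112 and 122 CPM against 296 to 506 (median 414) CPM. The protease inhibitor Slpi had 7.52, 8.80 and 7.52 CPM against 14.999 to 32.2 (median 24.3) CPM. Vimentin (Vim), an intermediate filament of mesenchymal cells, had 2.57, 4.71 and 6.68 CPM against 8.61 to 18.0 (median 11.9) CPM. These 3 did not overlap either. Beside Vim and Mgp, which fibroblasts also express, 9 of the 12 fibroblast and muscle markers had no count. Log2 differences were -1.79 for the class I gene H2-Q1, which shares reads with close relatives, -1.49 for Glod5, -1.48 for the secreted Wnt inhibitor Wif1, -1.46 for Btbd8 and -1.45 for myoglobin (Mb). Rn18s-rs5 itself differed by -1.50 and by -1.20 without replicate 2, which alone held 23930.4 CPM.

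**Figure D2:**
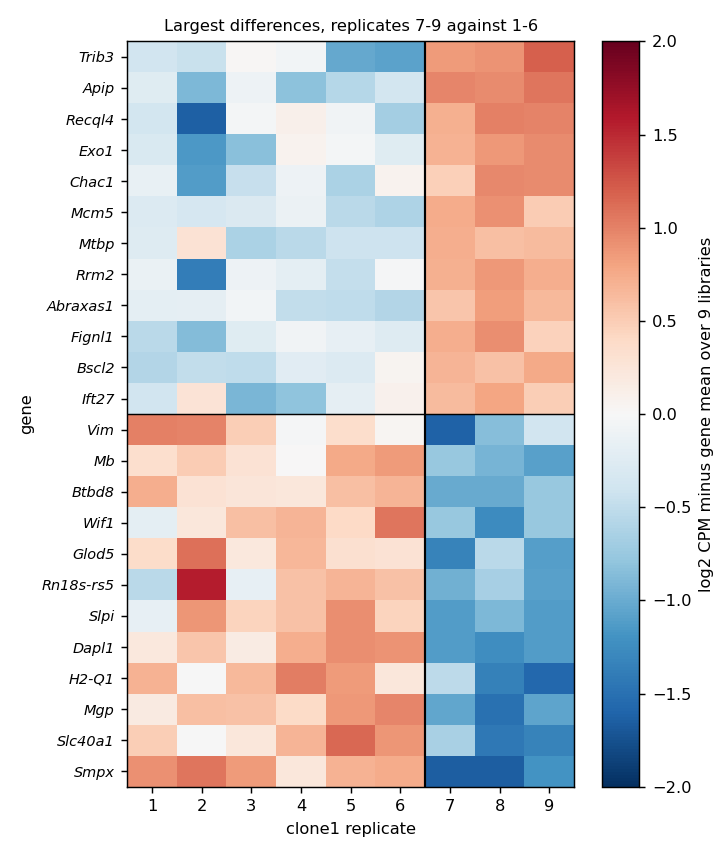
The 12 genes with the largest positive and the 12 with the largest negative differences among called genes with a mean log2 CPM of 3 or more (rows) in the 9 clone1 libraries (columns); colour is log2 CPM minus the gene's mean over the 9 libraries, and the lines separate replicates 1 to 6 from 7 to 9 and positive from negative differences. Each of the 24 genes was chosen for having no overlap, so the clean split of the rows is by construction; replicate 2 shows the widest departures within the earlier set.

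Among the 42 gene lists, that of S phase had the most called members. All 24 listed members were tested, 15 were higher in replicates 7 to 9, and every one of the 24 had a positive difference, with a median of 0.66 against -0.02 over all genes. In 17 of the 24 every later library lay above every earlier one. Called higher were 3.98% of all genes, and since the same profiles chose the sets, nothing is read from the counts of this or any later list. Mcm5, a subunit of the replicative MCM helicase (ENSMUSG00000005410, chromosome 8, 75109569 to 75128439), had 83.5, 93.6 and 71.0 CPM against 32.2 to 45.6 (median 39.7) CPM in replicates 1 to 6, a log2 difference of 1.09 ± 0.16. The helicase subunit Mcm4 had 77.8, 83.5 and 82.0 CPM against 34.3 to 48.0 (median 41.6) CPM, a difference of 0.96. Rrm2, the regulated subunit of ribonucleotide reductase, had 198, 222 and 199.7 CPM against 45.9 to 118 (median 108) CPM, a difference of 1.06. None of the 3 overlapped. Cdc6, which loads the helicase onto origins, had 24.7, 31.7 and 22.7 CPM against 9.37 to 23.1 (median 12.5) CPM, so its sets met, with replicate 4 above replicate 9. Fen1, which trims Okazaki fragments, differed by 0.86, the clamp Pcna by 0.41 and the licensing factor Cdt1 by 0.19, the smallest of the 24. The same count was 1 when all 34 libraries shared 1 fit, and it was 13 to 17 when single clone1 libraries were left out.

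The promoters of 2 S phase members with a motif match are shown. The list was taken because it held the most called members and E2F factors are known to act on such genes. The windows hold the 250 bases before the start (RefSeq, GRCm38.p6, 5′ to 3′ on the gene's strand), with matches to TTTNGCGC or TTCCCGCC on either strand in capitals. 
Mcm5 (chr8:75109259-75109508, plus strand): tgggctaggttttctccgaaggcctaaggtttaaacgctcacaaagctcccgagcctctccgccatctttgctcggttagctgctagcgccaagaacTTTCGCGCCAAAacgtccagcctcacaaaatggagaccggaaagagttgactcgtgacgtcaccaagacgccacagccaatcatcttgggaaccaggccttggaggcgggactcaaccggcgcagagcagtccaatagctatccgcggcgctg
Mcm6 (chr1:128359706-128359955, minus strand): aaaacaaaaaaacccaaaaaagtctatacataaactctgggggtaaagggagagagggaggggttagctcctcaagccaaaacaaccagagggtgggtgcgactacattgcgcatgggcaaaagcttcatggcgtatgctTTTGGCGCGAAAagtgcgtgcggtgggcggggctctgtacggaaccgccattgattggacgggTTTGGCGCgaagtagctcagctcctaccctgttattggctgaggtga
In Mcm5 the capitals hold a forward and a reverse match to TTTNGCGC that overlap. The same kind of overlapping pair stands in Mcm6, a further helicase subunit, together with 1 more match nearer the start. Mcm6 had 22.7 to 30.7 CPM in replicates 7 to 9 and 8.95 to 19.9 (median 16.4) CPM in replicates 1 to 6, with no overlap. Of the 15 higher members 13 had a window and 4 of those (Mcm5, Mcm6, Rrm1 and Uhrf1) held a match, as did 2 of the 7 others with a window. The windows of Rrm2 and Cdc6, whose differences were larger than that of Mcm6, held no match and are not shown. Over 32851 windows the share with either motif was 2.931%, a window with both being counted once. A match describes letters in the window and not binding, and the motifs were picked after the values had been seen.

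Genes of G2 and mitosis had fewer calls. Of 24 tested, 4 were higher in replicates 7 to 9 and the list median was 0.29, with 22 positive differences. Birc5, the survivin subunit of the chromosomal passenger complex, had 325, 326 and 303 CPM against 171 to 222 (median 197) CPM, a difference of 0.69 ± 0.11. The checkpoint kinase Bub1 had 30.5, 34.8 and 27.9 CPM against 14.6 to 27.1 (median 18.3) CPM, a difference of 0.63. The mitotic kinesin Kif20a and the kinase Aurka differed by 0.55 and 0.53, and none of these 4 overlapped. The cycling marker Mki67 had 63.7 to 70.7 CPM in the later set, inside its range of 43.4 to 102 (median 62.8) CPM in the earlier one. Members of both cell cycle lists share a cycle and are not independent of one another.

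Ribosome biogenesis genes were also higher in the later libraries, in 8 of 21 tested, with a median of 0.52. Nolc1, a nucleolar chaperone of snoRNP particles, had 109, 104 and 108 CPM against 44.6 to 80.5 (median 53.6) CPM, a difference of 0.95 ± 0.13, with no overlap. Nop56, a core protein of box C/D snoRNPs, had 132, 141 and 122 CPM against 74.2 to 98.4 (median 81.1) CPM, again with no overlap. Dkc1, the pseudouridine synthase, and Bop1, which acts in large-subunit assembly, differed by 0.54 and 0.59, and both sets met. In Dkc1 it was the shallow replicate 2, at 129 CPM, that reached the later range. The 31 messages of cytosolic ribosomal proteins had a median difference of -0.05, and edgeR called 0 of them, with 2 below an unadjusted p of 0.05 and 1 called by DESeq2.

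**Figure D3:**
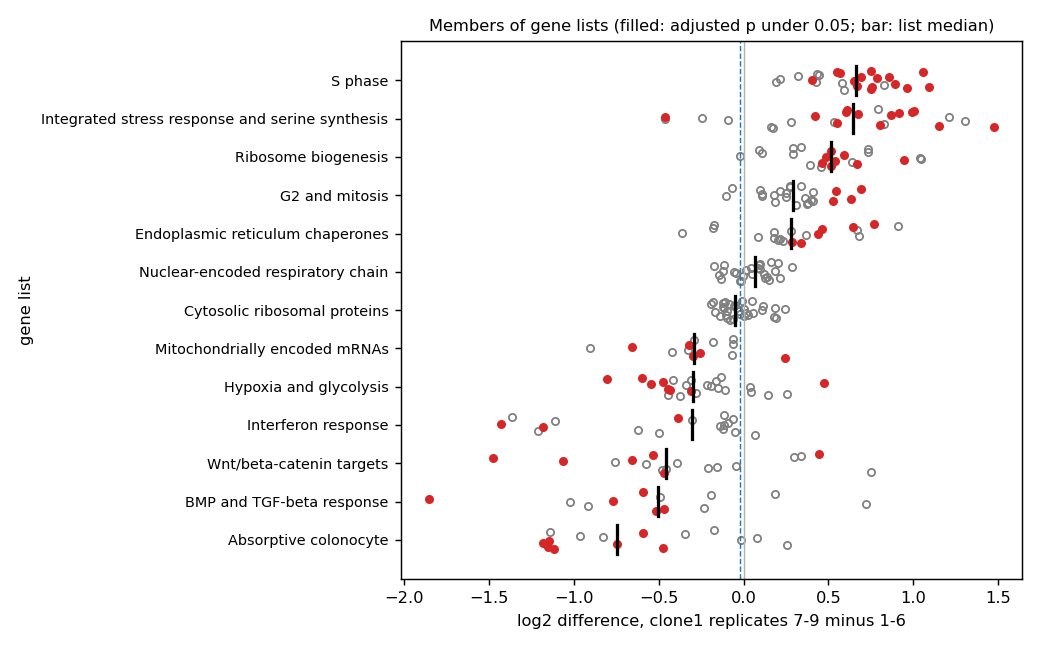
Log2 difference between clone1 replicates 7 to 9 and 1 to 6 for the tested members of 13 gene lists; each circle is a gene, filled where called, black bars are list medians and the dashed line is the median of all 11514 genes at -0.02. S phase members all lie right of 0, with a list median of 0.66, and the absorptive colonocyte list has a median of -0.74.

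The integrated stress response and serine synthesis list had 12 members higher and 1 lower among 24 tested, with a median of 0.64. Chac1, which degrades glutathione, had 11.1, 15.6 and 15.5 CPM against 3.35 to 8.26 (median 6.31) CPM, a log2 difference of 1.15 ± 0.31. Mthfd2, a mitochondrial folate enzyme, had 142, 156 and 146 CPM against 57.7 to 89.5 (median 75.0) CPM, a difference of 0.995 ± 0.13. Aldh1l2, of the same route, had 10.5, 13.3 and 12.2 CPM against 3.35 to 8.91 (median 5.34) CPM. All 3 were free of overlap between the sets. The serine synthesis enzymes Phgdh, Psat1 and Psph differed by 0.68, 0.87 and 0.92, each without overlap, so the 3 steps from glycolytic carbon to serine lay on the same side. Asparagine synthetase (Asns) had 428 to 455 CPM in the later set and 217 to 289 (median 259.7) CPM in the earlier set. The factor Atf4 itself had 70.5 to 74.9 CPM against 53.3 to 92.8 (median 62.4) CPM, with overlap, and Ddit3 (CHOP) differed by 0.16. Slc7a11, the cystine transporter and the 1 member that was lower, had 119.6 to 138 CPM against 156 to 199 (median 174) CPM. Limma called 9 higher, the fit of all 34 libraries 6 members in all, and 7 were called without replicate 8 or without replicate 9.

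Promoter windows of 4 members of this list are shown, because ATF4 acts through a composite element that the letters TGATGNAA resemble; capitals mark matches on either strand (RefSeq, GRCm38.p6, 250 bases before the start, 5′ to 3′). 
Chac1 (chr2:119350992-119351241, plus strand): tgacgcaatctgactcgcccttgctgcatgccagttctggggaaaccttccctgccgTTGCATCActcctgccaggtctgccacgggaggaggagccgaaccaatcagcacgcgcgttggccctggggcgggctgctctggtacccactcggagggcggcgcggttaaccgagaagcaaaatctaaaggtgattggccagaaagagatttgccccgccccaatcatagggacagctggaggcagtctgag
Asns (chr6:7693210-7693459, minus strand): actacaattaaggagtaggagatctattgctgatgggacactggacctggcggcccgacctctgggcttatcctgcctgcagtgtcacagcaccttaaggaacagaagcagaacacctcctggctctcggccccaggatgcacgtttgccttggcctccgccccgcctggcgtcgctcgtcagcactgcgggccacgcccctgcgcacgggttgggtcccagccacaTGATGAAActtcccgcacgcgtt
Aars (chr8:111033592-111033841, plus strand): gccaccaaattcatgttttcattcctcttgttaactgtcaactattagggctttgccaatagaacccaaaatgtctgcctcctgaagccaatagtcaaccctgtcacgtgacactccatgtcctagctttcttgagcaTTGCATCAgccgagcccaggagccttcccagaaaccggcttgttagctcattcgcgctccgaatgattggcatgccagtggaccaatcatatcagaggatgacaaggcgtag
Trib3 (chr2:152344061-152344310, minus strand): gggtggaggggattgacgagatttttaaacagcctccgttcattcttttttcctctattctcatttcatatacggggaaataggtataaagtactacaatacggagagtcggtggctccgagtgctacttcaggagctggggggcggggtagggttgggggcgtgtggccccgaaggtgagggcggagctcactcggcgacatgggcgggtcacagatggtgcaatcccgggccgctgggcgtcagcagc
Chac1 and Aars, the alanine tRNA synthetase, hold the motif on the reverse strand, and Asns holds it on the forward strand close to the start. The window of Trib3, the member with the largest difference, holds no match, which says only that these letters are not in it. Of the 12 higher members 11 had a window and 3 of those held a match, against 4 of the 11 other members with a window. The share over all 32851 windows was 3.452%. The motif was picked after the values had been seen.

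Chaperones of the endoplasmic reticulum included 6 higher and 0 lower members among 20 tested, with a median of 0.28; at an unadjusted p of 0.05 edgeR had 10 higher and 0 lower, and DESeq2 called 5 and 0. The count of 6 was 3 by limma and 1 without replicate 8, 2 without replicate 6 or 7 and 3 without replicate 1, 3, 5 or 9. Selenos, a selenoprotein of the degradation machinery, had 93.8, 121 and 90.9 CPM against 50.3 to 67.1 (median 58.6) CPM, a difference of 0.77 ± 0.12, without overlap. Sel1l, the adaptor of the Hrd1 ubiquitin ligase, and the secreted chaperone-like Manf differed by 0.65 and 0.44, and Herpud1 by 0.46. The central chaperone Hspa5 (BiP) differed by 0.34. Among 15 heat shock genes tested the 3 called higher were mitochondrial chaperones. Hspd1 (HSP60) had 679.8, 752 and 662 CPM against 428 to 478 (median 439) CPM, and its partner Hspe1 (HSP10) had 349.7, 399 and 353 CPM against 224 to 268 (median 251) CPM. Hspa9, the mitochondrial HSP70, differed by 0.45. Cytosolic members such as Hspa8 and Hsp90ab1 differed by 0.00 and 0.15, and the small heat shock protein Cryab differed by -0.87.

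Absorptive colonocyte genes were lower in replicates 7 to 9, in 7 of 15 tested, with a list median of -0.74. Carbonic anhydrase 1 (Car1, ENSMUSG00000027556, chromosome 3, 14766216 to 14808368), abundant in the colon surface, had 629, 609 and 543 CPM against 954 to 1404 (median 1349) CPM, a log2 difference of -1.12 ± 0.13. Cyp2c55, a colonic cytochrome P450, had 79.4, 74.3 and 65.8 CPM against 112 to 210.2 (median 149) CPM. Krt20, the keratin of differentiated colonocytes, had 12.7, 7.17 and 10.5 CPM against 15.7 to 32.6 (median 18.22) CPM. No library of one set reached the other in these 3 genes. Lypd8, a secreted protein that keeps bacteria off the epithelium, had 16.2, 15.8 and 29.9 CPM against 37.5 to 63.7 (median 47.6) CPM, a difference of -1.18, and the mucin Muc13 differed by -0.74. Villin (Vil1) of the brush border differed by -0.17 and was not called. The list kept 1 call when all 34 libraries shared 1 fit and 4 without replicate 8.

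Other differentiation genes did not form a single pattern. Of the 5 goblet cell genes tested, Tff3, a secreted trefoil peptide, had 11.9, 17.4 and 12.9 CPM against 1.12 to 10.02 (median 4.91) CPM, a difference of 1.27 ± 0.36 without overlap. Of the Paneth and deep crypt list, the lectin Itln1 and the surface protein Cd24a were lower, with differences of -0.84 and -0.81. Among 12 simple and basal keratins 4 were lower and 1 higher. The basal keratin Krt14 had 5.74, 6.76 and 8.69 CPM against 1.803 to 4.63 (median 2.19) CPM, while Krt13 and Krt15 differed by -1.27 and -0.76. Krt14 did not overlap and Krt13 and Krt15 did. Of the hair-type keratins Krt33b, with 9.50, 12.7 and 10.9 CPM against 18.0 to 30.2 (median 27.5) CPM, was the 1 call among 10. In the cornified envelope list Sprr1a differed by -0.94 and the cross-linking enzyme Tgm1 by 0.57.

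Of 17 Wnt target and feedback genes 5 were called lower and 1 higher, with a median of -0.46. Without replicate 8, or without replicate 9, 3 of them were called. Bambi, a decoy receptor that Wnt signals induce, had 19.2, 25.2 and 21.22 CPM against 41.0 to 50.5 (median 45.7) CPM, a difference of -1.07 ± 0.17. The secreted antagonist Dkk2 had 19.2, 19.04 and 19.9 CPM against 21.6 to 47.0 (median 31.2) CPM. Both were free of overlap. Axin2, the feedback scaffold, had 65.1, 38.1 and 50.5 CPM against 64.5 to 79.7 (median 70.4) CPM, with replicate 7 inside the earlier range. Cd44, a surface glycoprotein of progenitors, was the higher member, with 129.6, 113 and 133 CPM against 68.2 to 102 (median 92.6) CPM. The stem cell receptor Lgr5 had 14.8, 17.0 and 13.0 CPM against 4.9997 to 19.01 (median 8.68) CPM, and its overlap came from the shallow replicate 2. Among 12 BMP and TGF-beta genes 5 were called lower, with a median of -0.50, but 3 without replicate 8 and 1 without replicate 9. The ligand Bmp4 had 1.39, 2.46 and 1.34 CPM against 2.58 to 11.7 (median 5.597) CPM, and the ligand Bmp2 had 15.4, 17.1998 and 12.9 CPM against 17.2211 to 31.4 (median 25.6) CPM. Neither ligand overlapped, although in Bmp2 replicates 8 and 4 nearly met. The target Id1 and the feedback repressor Skil differed by -0.52 and -0.59. The Notch effector Hes1 had 123, 112 and 123 CPM against 154 to 224 (median 190.2) CPM and was the 1 call among 9 Notch genes.

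Metabolic lists also held fewer calls than the S phase list. Of 24 hypoxia and glycolysis genes 7 were lower and 1 higher, with a median of -0.30. These 8 calls became 5 without replicate 8 and 3 without replicate 9. Bnip3, a mitophagy receptor induced by HIF, had 764, 766 and 725 CPM against 1001 to 1147 (median 1109) CPM, and Egln3, the HIF prolyl hydroxylase, had 90.1, 89.1 and 75.2 CPM against 105 to 149.9 (median 115) CPM. The glycolytic enzymes Pgk1, Gapdh and Aldoa differed by -0.45, -0.43 and -0.31, and the stress gene Ndrg1 by 0.47. Of 25 cholesterol genes 5 were lower, or 3 without replicate 8 or 9, while the list median was -0.03. Insig1, which retains SREBP in the endoplasmic reticulum, had 35.4, 37.9 and 35.8 CPM against 40.8 to 90.9 (median 59.2) CPM, and Srebf2, a sterol-regulated transcription factor, had 252, 263 and 226 CPM against 317 to 357 (median 339) CPM. Neither overlapped. Of 18 fatty acid synthesis genes 1 was lower and 1 higher, with a median of -0.02, and malic enzyme (Me1) differed by -0.81. Of 18 fatty acid oxidation genes 2 were lower and 0 higher, and the fatty acid carrier Fabp2 differed by -1.15. Of 19 NRF2 and glutathione genes 3 were lower and 0 higher, and glutathione synthetase (Gss) differed by -0.60. The glutathione transferases Gsta3 and Gstm1, members of families of close copies, differed by -0.67 and -0.50.

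Mitochondrially encoded mRNAs had 4 lower and 1 higher member among 13. DESeq2 called 5 lower and limma 4, neither called the higher one, and edgeR called 2 members without replicate 7, 8 or 9. The oxidase subunit mt-Co1 had 712, 734 and 740.4 CPM against 1084 to 1185 (median 1156) CPM, a difference of -0.66 ± 0.15. The summed mitochondrial share also split the sets, as given above. Nuclear genes of the same respiratory complexes had a median difference of 0.07, and edgeR called 0 of 26, with 3 at an unadjusted p of 0.05 and 0 called by DESeq2. Among 8 nuclear-retained RNAs, Neat1, the scaffold of paraspeckles, had 268, 234 and 260.2 CPM against 398 to 1286 (median 495) CPM. Malat1, of nuclear speckles, had 7076, 7509 and 6965 CPM against 10161 to 14388 (median 11622) CPM. Neither overlapped, and Neat1 differed by -1.26 with replicate 2 and by -0.92 without it. Of 24 lysosomal genes 5 were lower and 1 higher, or 3 in all without replicate 9: the membrane protein Lamp2 had 294, 286 and 282 CPM against 377 to 500.2 (median 465) CPM, and the protease Ctsz had 62.1, 64.1 and 53.1 CPM against 32.2 to 37.6 (median 32.8) CPM. Both separated the sets, in opposite directions.

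Of 17 interferon genes 3 were called lower and 0 higher, with a list median of -0.30 and 16 negative differences. DESeq2 called 4 lower and limma 2, and edgeR had 7 lower and 0 higher at an unadjusted p of 0.05. The deubiquitinase Usp18 had 1.78, 2.87 and 2.67 CPM against 4.72 to 8.95 (median 6.92) CPM. Ifi27 had 20.2, 20.1 and 24.1 CPM against 31.3 to 61.3 (median 49.2) CPM, and B2m differed by -0.39. Of 15 tested genes in the p53 list, which holds Trp53 itself beside its targets, 3 were lower. The death gene Pmaip1 (NOXA) differed by -0.81, Trp53inp1 by -0.75 and the CDK inhibitor Cdkn1a by -0.34. Whether p53 had a part in these differences was not tested. Of 23 immediate early genes 3 were lower. Fos had 24.7, 23.3 and 24.2 CPM against 27.5 to 66.0 (median 47.7) CPM, with replicates 1 to 3 near the top of the earlier set and replicates 4 to 6 near its bottom. The factor Junb and the phosphatase Dusp4 differed by -0.55 and -0.67.

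The series title names ceramides and a revival programme, and members of both were compared between the sets. Of 13 genes of de novo ceramide synthesis, the ceramide synthase Cers6 was the 1 call, with 33.8, 30.3 and 43.1 CPM against 19.01 to 27.8 (median 25.2) CPM and a difference of 0.52 ± 0.16. At an unadjusted p of 0.05 edgeR had 2 of the 13 higher and 0 lower. In 3 of the 13 every later library lay above every earlier one and in 0 below, where all genes had 6.53% and 6.49%. Of 24 genes that use or break down ceramide, edgeR called 0, with 4 at an unadjusted p of 0.05 and 1 called by DESeq2. The ceramidase Asah1 differed by -0.27. Among 22 revival and fetal-like genes Areg, an EGFR ligand, was higher, with 30.7, 30.3 and 36.6 CPM against 11.2 to 23.1 (median 16.8) CPM, and Cd55, a complement regulator, was lower, with 45.5, 38.9 and 37.8 CPM against 54.4 to 73.7 (median 59.7) CPM. These were the 2 calls by edgeR; DESeq2 called 1 higher and 4 lower, and at an unadjusted p of 0.05 edgeR had 4 higher and 8 lower. In 8 of the 22 every later library lay below every earlier one and in 2 above, where all genes had 6.49% and 6.53%. Clu differed by -0.31, Anxa1 by -0.10 and Ly6a by -0.30. Ly6a separated the sets, with 2558, 2699.9 and 2742 CPM against 2892 to 3607 (median 3264) CPM, and was not called. Of 14 YAP target genes Crim1 was the 1 call, with a difference of -0.82, and Yap1 itself differed by -0.14 ± 0.23. In the crypt-base list of 18, Cdca7, a chromatin factor, was higher with Cd44, at 131, 117 and 109 CPM against 51.3 to 86.6 (median 76.8) CPM.

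Each set was next set against the 3 Scrambled libraries, which are not part of either set. With edgeR at an adjusted p of 0.05, replicates 1 to 6 differed from Scrambled in 2371 of 11514 genes (20.6%), 1196 higher (10.4%) and 1175 lower (10.2%). Replicates 7 to 9 differed in 980 (8.51%), 399 higher (3.47%) and 581 lower (5.05%). The comparisons share their control libraries and have 6 and 3 libraries in the knockout arm, so these counts are given side by side and their difference was not tested. The later count was 551 without Scrambled replicate 2, 576 without clone1 replicate 7 and 631 without clone1 replicate 8, and the earlier count was 1625 to 2500 over its leave-one-out fits. A gene chosen for a difference between the sets must also differ between these comparisons. For such genes the p-values against Scrambled rest partly on the values that chose them. They are therefore given as a description and not read as tests.

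Of 24 S phase genes, 12 fell in replicates 1 to 6 relative to Scrambled, with a list median of -0.40, and 0 passed in replicates 7 to 9, with a median of 0.14. In the latter comparison edgeR gave 5 at an unadjusted p of 0.05 and DESeq2 called 1. Mcm5 had 68.4, 58.6 and 87.9 CPM in Scrambled, which placed replicates 1 to 6 below the control (log2 -0.89 ± 0.16, edgeR adjusted p = 7.16e-05, or 0.118 when all 34 libraries shared 1 fit) and replicates 7 to 9 around it (0.21 ± 0.18, adjusted p = 0.579). Rrm2 had 118, 109 and 143 CPM in Scrambled, below replicates 7 to 9, with the library at 109 inside the range of replicates 1 to 6. It passed in neither comparison (-0.31 and 0.74, edgeR adjusted p = 0.341 and 0.0703). Of G2 and mitosis genes 13 of 24 fell in the earlier set, or 7 without Scrambled replicate 3, and 3 in the later set, with medians of -0.47 and -0.15. Of ribosome biogenesis genes 1 rose and 4 fell in the earlier set, and 3 rose in the later set.

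Of 24 stress response and serine genes 14 fell and 1 rose in replicates 1 to 6, with a median of -0.76. In replicates 7 to 9 the number that fell was 3, with a median of -0.19, or 1 when replicate 7 was left out. Trib3 had 15.01, 16.9 and 25.7 CPM in Scrambled, a change of -1.74 ± 0.25 in the earlier set (edgeR adjusted p = 1.1e-06) and -0.27 ± 0.27 in the later set (adjusted p = 0.641). Mthfd2, at 195, 189 and 184 CPM in Scrambled, lay above both sets, with changes of -1.35 (edgeR adjusted p = 4.31e-10) and -0.35 (adjusted p = 0.163). Psph fell in both, by 1.64 and 0.72 on the log2 scale. Chaperones of the endoplasmic reticulum fell in 11 of 20 members in the earlier set and 2 in the later set. Hspd1 had 821, 771 and 881 CPM in Scrambled, above every clone1 library of either set.

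More absorptive genes rose than fell in both sets. Of 15 tested, 8 rose and 1 fell in replicates 1 to 6, with a median of 0.77, and 4 rose and 2 fell in replicates 7 to 9, with a median of 0.34. Car1 had 143, 126 and 137 CPM in Scrambled and rose by 3.25 ± 0.15 (edgeR adjusted p = 7.05e-16) and 2.13 ± 0.15 (adjusted p = 2.11e-11). Dapl1 had 60.9, 64.4 and 51.6 CPM in Scrambled and rose by 2.78 and 1.01 (edgeR adjusted p = 4.71e-07 and 0.023). The rise in the later set missed the threshold when any 1 library of that comparison was left out (adjusted p from 0.0505 to 0.0832). Lypd8 had 43.2, 36.7 and 26.3 CPM in Scrambled and fell in the later set (-0.77, edgeR adjusted p = 0.0468), against 0.42 in the earlier set (adjusted p = 0.176). That fall missed the threshold without clone1 replicate 7 or 8 or Scrambled replicate 1 or 2 (adjusted p from 0.14 to 0.225). Smpx and Slpi, at 6.59, 8.98 and 6.78 and 11.1, 9.45 and 7.98 CPM in Scrambled, rose in the earlier set by 2.13 and 1.36 (edgeR adjusted p = 8.25e-12 and 2.08e-05). The later set did not pass for either (-0.15 and -0.26, edgeR adjusted p = 0.79 and 0.661). For Mgp and Vim the earlier set did not pass (0.13 and 0.07, edgeR adjusted p = 0.755 and 0.873). The later set fell by 1.70 and 1.33 on the log2 scale (edgeR adjusted p = 0.000633 and 0.00199).

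Some genes with large changes against Scrambled, at the same level of expression, passed in both sets, unlike Smpx, Trib3 and Mgp above. The carbonic anhydrase Car9 had 119.8, 122 and 127 CPM in Scrambled, 10.1 to 19.2 (median 15.1) CPM in replicates 1 to 6 and 13.9, 8.19 and 12.2 CPM in replicates 7 to 9. It fell by 3.05 and 3.42 on the log2 scale (edgeR adjusted p = 1.36e-17 and 1.54e-15). Fundc2, a mitochondrial outer membrane protein, fell by 3.45 and 3.28. The secreted phospholipase Pla2g2a changed by -3.50 and -3.67. The glycosyltransferase Mgat4c changed by -2.52 and -3.25. Pid1, a phosphotyrosine-binding adaptor, rose by 3.79 and 3.54, the urea transporter Slc14a2 by 4.75 and 4.61, and the fatty acid carrier Fabp4 by 4.24 and 3.12. Of these, Fabp4 separated the sets and Car9, Fundc2, Pla2g2a and Pid1 overlapped. Hair-type keratins rose in 10 of 10 members in the earlier set and 8 in the later set, with medians of 2.79 and 2.33. Degs1 fell by 1.82 in the earlier set (edgeR adjusted p = 0.00335) and was -1.23 in the later set (adjusted p = 0.144), from few counts in every library.

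**Figure D4:**
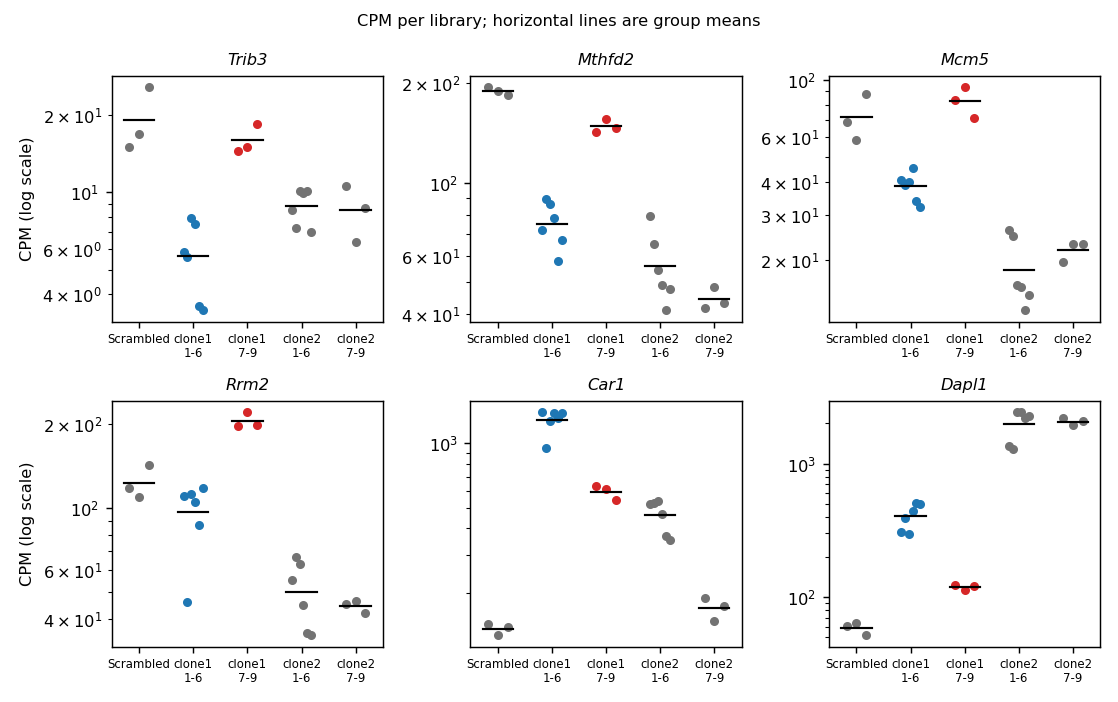
CPM of 6 genes (log scale, a panel each) in every Scrambled, clone1 and clone2 library, with clone1 replicates 1 to 6 in blue and 7 to 9 in red; points are libraries and lines are group means. Mcm5 in clone1 replicates 7 to 9 lies around Scrambled and above replicates 1 to 6, and Car1 in both clone1 sets lies above Scrambled.

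Clone2 carries the same replicate numbers, and a like boundary had been seen in its profiles, so its values are also a description. Between its replicates 7 to 9 and 1 to 6, 679 genes (5.9%) were called, 283 higher (2.46%) and 396 lower (3.44%), and in 599 (5.2%) and 690 (5.99%) its later libraries lay above or below all earlier ones. Across 11514 genes, which are not independent replicates, the differences in both clones were close to uncorrelated: Pearson's r was -0.03 and Spearman's rho 0.05, with no library in common. Called genes with the same sign numbered 108, or 10.7% of the clone1 calls and 15.9% of the clone2 calls, and 72 had opposite signs. Of the S phase list 1 gene was called in clone2 and the median was 0.12, against 15 and 0.66 in clone1. Mcm5 had 19.6, 23.0 and 23.1 CPM in clone2 replicates 7 to 9, within the 12.8 to 26.2 (median 15.9) CPM of replicates 1 to 6. Trib3 had 10.6, 6.41 and 8.65 CPM against 7.01 to 10.2 (median 9.24) CPM, with overlap. Absorptive genes were lower in 4 of 15, and Car1 had 189, 147 and 174 CPM against 352 to 535 (median 492.8) CPM, below in every library as in clone1. The replication genes Recql4 and Mtbp were higher in both clones (1.01 and 1.03 in clone2), and Mb was lower in both (-1.14 in clone2).

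Several genes that were lower in the later clone1 libraries were higher in the later clone2 libraries. Smpx had 255, 243 and 259 CPM in clone2 replicates 7 to 9 and 37.3 to 64.9 (median 44.2) CPM in replicates 1 to 6, a difference of 2.40 ± 0.13 against -2.28 in clone1. Mgp had 1008, 892 and 979 CPM against 180.1 to 349 (median 304) CPM, a difference of 1.77 ± 0.20. Slpi had 79.8, 44.7 and 58.0 CPM against 11.3 to 20.2 (median 16.7) CPM, a difference of 1.91 ± 0.19. In these 3 genes the sets were apart in both clones, in opposite directions. Vim and Wif1 also lay opposite, at 1.07 and 0.84 in clone2. Of the revival list 12 of 22 genes were called lower in clone2, with a median of -0.49. In clone1 edgeR called 1 lower and DESeq2 4, 8 lay lower without overlap, and the median was -0.15. The difference between the clones was not tested for any of these genes.

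**Figure D5:**
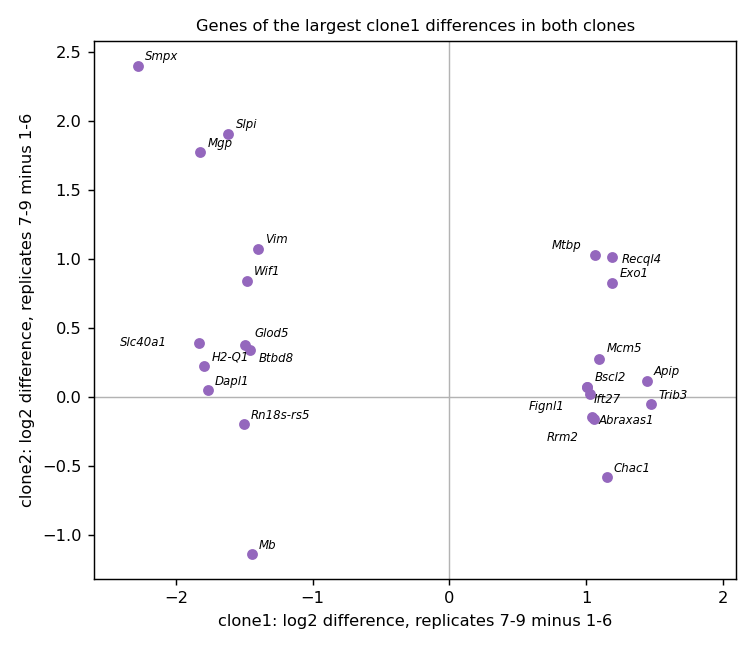
Log2 difference between replicates 7 to 9 and 1 to 6 in clone1 (horizontal) and clone2 (vertical) for the 24 genes named for the largest clone1 differences at that level; each point is a gene and grey lines mark 0. Smpx, Slpi and Mgp lie below 0 in clone1 and above 1.7 in clone2, and Trib3 and Dapl1 lie near 0 in clone2.

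With the shallow replicate 2 left out, the median pair r became 0.0676 within replicates 1 to 6 and -0.248 across the boundary. Of 112 named genes called with all 9 libraries, 104 stayed called and none changed sign. The 8 that were no longer called were Adm, Aldh1l2, B2m, Crim1, Dkk2, Dusp4, Elovl1 and Herpud1. Mcm5 and Trib3 stayed at 1.10 and 1.47, and Smpx at -2.24.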

How the data were processed

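Poly(A) RNA from organoids was sequenced after a directional NEBNext library preparation, per the labels' protocols. The authors deposited 1 table of estimated counts per gene for the 34 libraries. Per the submitters' processing notes Salmon 1.3.0 and mm10 were used, and how transcripts were summed to genes is not given in the sources used here. The deposited estimated counts were already whole numbers, for 54354 genes. Unnamed entries, never above 0.0475% of a library, kept their IDs, met the same low-count filter as other genes and were left out only of the naming rule. Positions came from GENCODE M21 for 51528 of the IDs.

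Fits used the 21 CRISPR libraries in 5 groups (Scrambled, and replicates 1 to 6 and 7 to 9 of each clone), with TMM scaling, a filter (filterByExpr, count minimum 10, total 15) and edgeR 4.0.16's robust quasi-likelihood test in R 4.3.3, with Benjamini-Hochberg adjustment over 11514 genes and a threshold of 0.05. SE was the absolute log2 difference divided by the square root of the F statistic. CPM values used TMM-scaled library totals. The scripts were tested on simulated data. The sets, genes and 42 lists were chosen with earlier results of these data known.

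Named by rule were Degs1, Car9, Lgr5, Clu, Anxa1, Ly6a, Yap1, Krt15, Pla2g2a and Cyp2c55, and the 12 largest differences in each direction among called genes whose log2 CPM averaged 3 or more, without overlap, predicted genes and pseudogenes aside. The rule added up to 4 called members of each list (average log2 CPM 1 or more, else the 2 highest expressed), and the 3 largest rises and falls against Scrambled. Other list members (Mcm6, Fen1, Pcna, Cdt1, Mki67, Phgdh, Psat1, Psph, Asns, Aars, Atf4, Ddit3, Slc7a11, Hspa5, Hspa8, Hsp90ab1, Vil1, Muc13, Pgk1, Gapdh, Aldoa, Ndrg1) were picked after their values were seen. Replicate numbers were not used to pair libraries. Same-numbered clone1 and Scrambled libraries had r from -0.089 to 0.152, over too few pairs to exclude a pairing. Alternatives were DESeq2 1.42.0, its size factors, limma 3.58.1, no filter, a threshold of 0.01, all 34 libraries, only the 9 clone1 libraries, a replicate block and leaving out single libraries. The shYap and other control libraries entered only the fit of all 34.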

Additional observations from a re-analysis of the deposited data

Results flagged for a closer look

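In 139 sets of 6 values from clone1 replicates 1 to 6, the gap of 1 library to its nearest neighbour passed Dixon's 95% critical value of 0.625 in 14. For independent, normally spread values chance gives about 1 in 20. These sets share the same 6 libraries and many genes were chosen by their values, so that rate is no measure for the 14. Of the 14, 12 were in replicate 2, the shallowest library, whose total was 883253 counts. Its CPM stood above the other 5 for the stem cell receptor Lgr5 (19.01), Mtbp (14.5), Egln3 (150), mt-Nd4 (1736), Dkc1 (129), Id1 (123), Dusp4 (30.2) and Neat1 (1286). It stood below them for Herpud1 (27.96), the respiratory subunit Ndufa4 (972) and Car1 (954). The remaining 2 were Krt33b in replicate 1 (18.0) and the macrophage and lysosome gene Cd68 in replicate 6 (22.4), both low.

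Among the named genes, 14 were such that every library of replicates 7 to 9 lay on the opposite side of replicates 1 to 6 in clone2 from that in clone1, and the difference between the clones was not tested. Over all 11514 genes 116 lay apart in opposite directions in both clones, and 161 in the same direction. Of the 14 named genes, those lower in clone1 and higher in clone2 were Smpx (log2 difference in clone2 2.40), Mgp (1.77), Slpi (1.91), Wif1 (0.84), Vim (1.07), Gsta3 (0.94), Gstm1 (0.70), Cd24a (0.65), the hormone peptide YY gene Pyy (2.67), Id1 (0.51), Usp18 (1.22), Sprr1a (0.47) and Lamp2 (0.29). Cd44 was higher in clone1 and lower in clone2 (-0.33).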

How the results depend on the processing

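At a threshold of 0.01 the genes called between clone1 replicates 7 to 9 and 1 to 6 fell in number from 1006 to 484, and 1 fit of all 34 libraries gave 205. Leaving out single clone1 libraries gave 468 (without replicate 8) to 1115 (without replicate 2). Against Scrambled, replicates 1 to 6 had 1403 called genes at 0.01, 1574 in the fit of 34, 1937 with the replicate number as a replicate block and 1625 to 2500 over leave-one-out fits. Replicates 7 to 9 had 486, 505 and 551 to 861. For clone2 the counts were 360, 318 and 382 to 406. DESeq2, its size factors, limma, no filter and the fit of 9 libraries left the clone1 count within 1.5 times of 1006. DESeq2's split was 465 higher and 731 lower, where edgeR had 458 and 548. The difference in library totals was 842544 without replicate 2. No paired analysis was possible for replicates 7 to 9 against 1 to 6 because no number stands on both sides.

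Of 112 named genes called, 111 stayed called with DESeq2, 97 with limma, 69 at 0.01, 36 in the fit of 34 and 65 without replicate 8, and 0 changed sign. Against Scrambled some small values changed sign. In the later set these were Ly6a (0.02 without clone1 replicate 7, 0.10 without Scrambled replicate 2; leave-one-out range -0.0961 to 0.0961), Yap1 (0.06 without Scrambled replicate 1; -0.28 to 0.0601), Chac1 (-0.0024 and -0.0056 without clone1 replicate 8 or 9, -0.14 without Scrambled replicate 2; up to 0.36) and Smpx (0.0226 without Scrambled replicate 2; -0.3439 to 0.0226). In the earlier set they were Yap1 (-0.08 and -0.0015 without Scrambled replicate 2 or 3; -0.0839 to 0.20), Mgp (-0.0198 without Scrambled replicate 3, -0.14 with the replicate block; -0.0198 to 0.3143) and Vim (-0.0151 without Scrambled replicate 2; -0.0151 to 0.1881). The cause was not tested. Median log2 differences over all genes stayed between -0.0464 and 0.021 under every scaling. At 883253 counts, genes at a few CPM rest on few counts in replicate 2.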
